A study of Mus musculus with 6 samples.

Results

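The genes described here are 47 enzymes, transporters and control kinases of glycolysis, the pentose phosphate pathway and the tricarboxylic acid (TCA) cycle, read in mouse spleen cells sorted through a gate for effector-memory CD8+ T cells and labelled S100A4-positive or S100A4-negative. They were chosen by gene name, with earlier results of these data known, from a table of 55951 genes. Of the 47 names, 46 were found as listed, and Irg1 was found under its newer symbol Acod1, which the RefSeq gene table pairs with it. Aldoa has 2 entries in the table, and the entry with the higher mean was used. Both groups were sorted from the spleens of C57BL/6 mice with an S100A4-EGFP reporter and ovalbumin-induced asthma, with no further treatment named in the labels. The S100A4-positive cells were CD3+CD8+CD4-CD44+CD62L-EGFP+ (3 libraries), and the S100A4-negative cells were CD3+CD8+CD4-CD44+CD62L-EGFP- (3 libraries). The reporter marks cells by EGFP and not by the S100A4 protein itself, and the labels give neither the age of the mice nor whether a library came from 1 animal or a pool, so p-values measure only the spread between these samples.

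Glycolysis breaks glucose down to pyruvate in the cytosol, the pentose phosphate pathway diverts glucose 6-phosphate to make NADPH and ribose for nucleotides, and the TCA cycle oxidises acetyl-CoA made from pyruvate in mitochondria. Activated CD8+ T cells raise glycolysis to grow and make cytokines, and stimulated macrophages also raise glycolysis and divert citrate-derived aconitate to itaconate. Many steps are served by several genes whose products differ in tissue, location in the cell or regulation.

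Levels are FPKM as deposited, that is, scaled to gene length and to the reads of the library. The lengths used are not stated in the sources used here, but reads and FPKM together bear on them, as shown for Slc16a3 and Slc16a1 below. Comparisons and shares of different genes depend on the lengths used, while a gene's own ratio between groups does not. Every fold change is a difference of means of log2(FPKM + 1), the S100A4-positive mean minus the S100A4-negative one; the added 1 shrinks changes of weakly expressed genes. A gene was called when limma's adjusted p was under 0.05, adjusted over all 13241 genes whose mean FPKM reached 1. The libraries held 14925260 to 18660188 reads, recovered from the deposited values. S100a4 itself was read 9, 25 and 11 times in S100A4-positive libraries and 0, 3 and 1 times in S100A4-negative libraries. The T cell markers were lower in S100A4-positive libraries: all 18 fell, and their summed level was 585 to 790.3 FPKM in S100A4-positive and 3487 to 4475 FPKM in S100A4-negative libraries. All 18 tested monocyte and macrophage markers, of 20 listed, rose, with sums of 7731 to 8552 FPKM in S100A4-positive and 566 to 807 FPKM in S100A4-negative libraries. Lyz2 and Csf1r averaged 3039 and 1039.9 FPKM in S100A4-positive and 311 and 22.6 FPKM in S100A4-negative libraries, and Cd3e and Cd8a, whose proteins the gate selects, 23.5 and 22.6 FPKM in S100A4-positive and 146 and 137 FPKM in S100A4-negative libraries. These levels go against the label of CD8+ T cells for the S100A4-positive libraries, in which macrophage markers far exceed T cell markers, so the groups are called here by their labelled gate and not by a cell type. Cd163 and Vsig4, near 0, were below the filter on low values. Of the other marker lists, 8 of 12 dendritic cell markers rose and 1 fell, and 7 of 8 plasma cell markers fell and 1 rose. Falls were also called in 11 of 12 neutrophil, 10 of 12 B cell, 4 of 4 tested natural killer cell and 1 of 2 tested platelet markers. For red cells, 0 of 6 tested markers passed. Of all tested genes, 19.0% rose and 43.4% fell. Each difference below lies between groups that also differed in most of these marker lists, and their part in it was not tested. In such bulk libraries, a change in the number of cells of a type and a change in RNA per cell cannot be told apart.

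Of the 47 genes, 45 passed the filter on low values, and 19 of these rose and 9 fell in S100A4-positive libraries. These are 42.2% and 20.0% of the tested members, where 19.0% of all tested genes were called higher and 43.4% lower. The members' median log2 fold change was 0.09, and that of all tested genes was -0.36. The groups did not overlap in 21 members with S100A4-positive higher (46.7%) and in 15 with S100A4-positive lower (33.3%), where 20.9% and 49.1% of all tested genes did so. Another scaling changed the balance. After median-of-ratios rescaling, which moved the median of all genes by 0.34 to -0.02, 25 members were called higher and 6 lower, where 27.7% of all genes were higher and 24.3% lower. The same 19 members were higher and called under all 5 scalings tried, and 6 (Slc2a3, Hk1, Slc16a1, Rpia, Pdk1 and Idh3a) were lower and called under all 5. For 10 members the direction flipped between scalings: Gpi1, Pfkl, Pfkm, Aldoc, Ldha, Rpe, Pdha1, Pdhb, Suclg1 and Ogdh. Exons of Pgls, Rpe, Pdha1, Pkm, G6pdx, Gpi1 and Pfkm share 10.7% to 20.6% of their bases with other genes, so their values may hold reads of those. A relative value below is a member's log2 fold change minus the median of all tested genes.

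**Figure D1:**
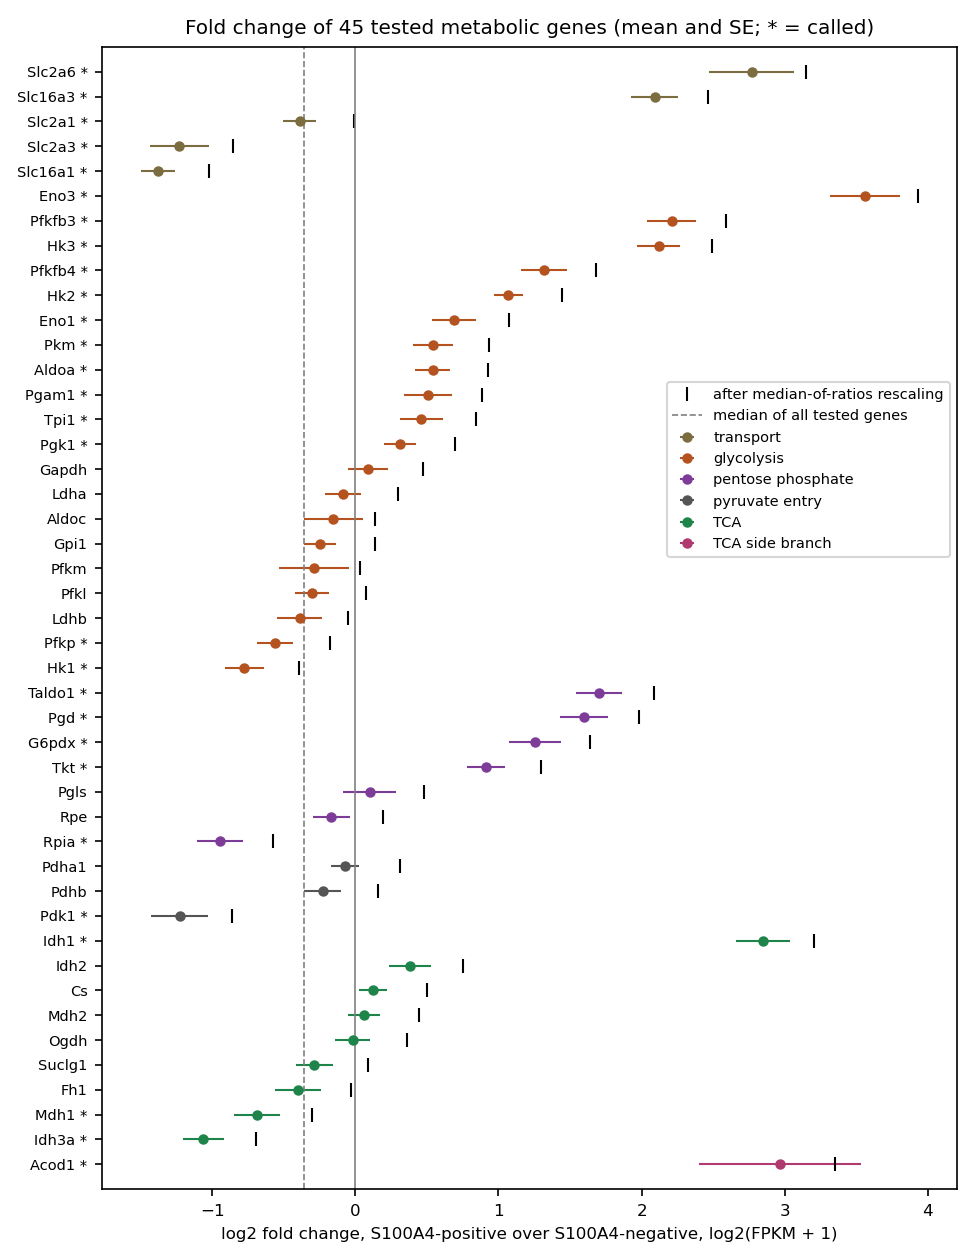
Log2 fold change (S100A4-positive over S100A4-negative, horizontal axis) of the 45 tested genes, grouped by role, with the standard error as a bar and an asterisk for called genes. Eno3, Acod1, Idh1 and Slc2a6 lie farthest to the right and Slc16a1 farthest to the left, and the black ticks after median-of-ratios rescaling lie to the right of every point.

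Of the 3 glucose transporters, 1 rose and 2 fell. Slc2a6, which encodes GLUT6, a transporter found on lysosomal membranes of macrophages, read 143, 226 and 162 FPKM in S100A4-positive libraries and 16.6, 37.4 and 24.0 FPKM in S100A4-negative libraries. It rose by 2.77 (SE 0.29, limma adjusted p = 2.74e-04), and the groups did not overlap. Slc2a3, which encodes GLUT3, the high-affinity transporter used by lymphocytes and neurons, read 26.0, 18.02 and 16.0 FPKM in S100A4-positive and 57.7, 41.7 and 44.0 FPKM in S100A4-negative libraries. It fell by 1.23 (SE 0.21, limma adjusted p = 0.0019). Slc2a1, which encodes the widely expressed GLUT1, read 42.0, 50.9 and 50.2 FPKM in S100A4-positive and 61.8, 61.6 and 64.4 FPKM in S100A4-negative libraries and fell by 0.39 (SE 0.12, limma adjusted p = 0.021). That call was lost without S100A4-negative replicate 2 or 3 (limma adjusted p = 0.0527 and 0.0683), it was made under 2 of 5 scalings, and the relative value of Slc2a1 was -0.03. Of the summed FPKM of the 3 transporters, Slc2a6 took 71.8% ± 4.48 in S100A4-positive and 19.0% ± 7.21 in S100A4-negative libraries (SD, n = 3 each). Monocyte and macrophage marker sums were higher in S100A4-positive libraries, as given above. Within that group they were 8552, 7731 and 7740 FPKM in replicates 1, 2 and 3, where Slc2a6 was lowest in replicate 1. Their part in the level of Slc2a6 was not tested.

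Hexokinase traps glucose in the cell as glucose 6-phosphate, and its 3 genes did not move together. Hk3, the hexokinase of myeloid cells, read 87.4, 84.4 and 72.2 FPKM in S100A4-positive and 14.7, 20.5 and 18.9 FPKM in S100A4-negative libraries, a rise of 2.12 (SE 0.15, limma adjusted p = 6.07e-05). Hk2, the inducible hexokinase that binds mitochondria, read 40.4, 42.4 and 43.5 FPKM in S100A4-positive and 19.1, 19.5 and 20.0 FPKM in S100A4-negative libraries. The 3 values of each group lay close together, and Hk2 rose by 1.07 (SE 0.10, limma adjusted p = 1.83e-04). Hk1, the form found in most tissues, read 65.0, 51.2 and 55.9 FPKM in S100A4-positive and 100.5, 108 and 88.3 FPKM in S100A4-negative libraries. It fell by 0.78 (SE 0.13, limma adjusted p = 0.00219). After median-of-ratios rescaling its log2 fold change was -0.39, and it passed narrowly (limma adjusted p = 0.0494). Hk1 held 31.7% ± 2.58 of the summed hexokinase FPKM in S100A4-positive libraries and 72.4% ± 2.75 in S100A4-negative libraries, and Hk3 held 44.9% ± 2.68 in S100A4-positive and 13.2% ± 2.03 in S100A4-negative libraries (SD, n = 3 each). Hk3 was the hexokinase gene with the highest level in each S100A4-positive library, and Hk1 in each S100A4-negative library, while the summed level was 180.8 ± 10.9 FPKM in S100A4-positive and 136 ± 10.4 FPKM in S100A4-negative libraries.

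The promoters of Hk3 and Hk1 are shown because these genes serve the same step and moved in opposite directions. Each is a window of 250 bases before to 50 bases after a start of the gene, from RefSeq on build GRCm38.p6, printed along the gene's own strand, which is the minus strand for both. Capitals mark the core letters bound by hypoxia-inducible factors, a family of regulators of glycolytic genes, searched as ACGTG and GCGTG on both strands (CACGT and CACGC when on the other strand), so that CACGTG, the E-box bound by MYC, is counted as well. The Hk3 window is chr13:55021336-55021635. Hk1 has 2 windows, an inner one at chr10:62340372-62340671 and an outer one at chr10:62379859-62380158, at the gene's upstream end.
Hk3: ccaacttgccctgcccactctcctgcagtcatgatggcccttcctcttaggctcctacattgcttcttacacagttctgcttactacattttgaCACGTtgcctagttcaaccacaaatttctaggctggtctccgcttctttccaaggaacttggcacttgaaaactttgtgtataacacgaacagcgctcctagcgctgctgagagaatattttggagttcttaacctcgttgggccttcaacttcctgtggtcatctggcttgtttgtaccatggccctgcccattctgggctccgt
Hk1 inner: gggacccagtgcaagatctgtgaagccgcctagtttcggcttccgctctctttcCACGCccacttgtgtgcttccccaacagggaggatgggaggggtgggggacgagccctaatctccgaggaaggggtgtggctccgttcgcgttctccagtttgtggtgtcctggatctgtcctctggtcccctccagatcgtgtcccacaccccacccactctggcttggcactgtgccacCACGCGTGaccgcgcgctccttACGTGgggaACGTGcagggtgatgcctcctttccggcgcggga
Hk1 outer: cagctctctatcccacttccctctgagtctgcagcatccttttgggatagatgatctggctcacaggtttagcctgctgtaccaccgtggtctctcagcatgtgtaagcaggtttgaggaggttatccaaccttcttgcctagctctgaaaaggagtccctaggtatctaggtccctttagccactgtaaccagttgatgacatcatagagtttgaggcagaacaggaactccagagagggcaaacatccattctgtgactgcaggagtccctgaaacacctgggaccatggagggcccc
The core occurred 1 time in the Hk3 window, 5 times in the inner Hk1 window, where overlapping matches form 4 marked stretches, and 0 times in the outer one. Windows were found for 45 of the 47 genes. At least 1 core stood in 83.1% of the 65 member windows and in 43.8% of all 32851 windows; the median GC content was 60.7% in member windows and 52.7% in all windows. By gene, 18 of 19 members that rose, 7 of the 7 with a window that fell and 14 of 17 that were not called had the core in at least 1 of their windows. Of all 27025 genes with a window, 46.7% had it. The antioxidant response core of NRF2, TGACNNNGC on either strand, stood in 12.3% of member windows and 12.4% of all windows, and the PU.1 letters GAGGAA, on either strand, in 24.6% of member and 28.3% of all windows. These are matches of letters and not sites of binding.

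Of the 3 genes of phosphofructokinase, the committed step of glycolysis, none was called higher under any of the 5 scalings. Pfkp, the platelet type, read 123, 148 and 145 FPKM in S100A4-positive and 221, 189.6 and 204.5 FPKM in S100A4-negative libraries, and fell by 0.56 (SE 0.13, limma adjusted p = 0.00675). The call of Pfkp was lost after median-of-ratios rescaling (-0.18, limma adjusted p = 0.292). Pfkl, the liver type, read 42.0, 39.7 and 49.2 FPKM in S100A4-positive and 52.4, 55.3 and 53.7 FPKM in S100A4-negative libraries, and Pfkm, the muscle type, 2.73, 6.14 and 3.74 FPKM in S100A4-positive and 4.55, 5.41 and 5.46 FPKM in S100A4-negative libraries. Neither passed (limma adjusted p = 0.0559 and 0.331), though Pfkl was called lower without S100A4-positive replicate 3 (0.0382) and Pfkm without S100A4-positive replicate 2 (0.0480), and both were above 0 after median-of-ratios rescaling. Pfkp held 74.3% ± 1.77 of the summed phosphofructokinase FPKM in S100A4-positive and 77.6% ± 1.88 in S100A4-negative libraries, and these shares overlapped.

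Pfkfb3 and Pfkfb4, whose enzymes control that step, both rose. Pfkfb3, which makes fructose 2,6-bisphosphate, an activator of phosphofructokinase, read 122, 142 and 184 FPKM in S100A4-positive and 28.3, 29.9 and 35.4 FPKM in S100A4-negative libraries. It rose by 2.21 (SE 0.17, limma adjusted p = 8.40e-05). Pfkfb4, its relative, read 35.1, 24.9 and 27.8 FPKM in S100A4-positive and 12.4, 10.1 and 10.7 FPKM in S100A4-negative libraries and rose by 1.32 (SE 0.16, limma adjusted p = 4.55e-04). The groups of both genes stood apart, and the share of Pfkfb3 in their summed FPKM was 83.2% ± 4.88 in S100A4-positive and 73.7% ± 3.71 in S100A4-negative libraries (SD, n = 3 each). Fbp1, the gluconeogenic enzyme that reverses the phosphofructokinase step, was read 0, 0 and 1 times in S100A4-positive and 3, 0 and 0 times in S100A4-negative libraries and was not tested.

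Of 20 glycolysis genes, 11 rose (55.0%), 2 fell (10.0%) and 7 were not called, with a median of 0.39. Of all tested genes, 19.0% rose and 43.4% fell, with a median of -0.36. Aldoa, the main aldolase, read 370.3, 334 and 358 FPKM in S100A4-positive and 220.3, 259.7 and 251 FPKM in S100A4-negative libraries, a rise of 0.54 (SE 0.12, limma adjusted p = 0.00704). Pkm, the pyruvate kinase of these cells, was at 797 ± 87.3 FPKM in S100A4-positive and 545 ± 26.1 FPKM in S100A4-negative libraries (SD, n = 3 each, as for the next genes) and rose by 0.54 (SE 0.14, limma adjusted p = 0.0121). Tpi1, Pgk1 and Pgam1, for triosephosphate isomerase, phosphoglycerate kinase and phosphoglycerate mutase, had log2 fold changes of 0.46, 0.31 and 0.51 (limma adjusted p = 0.0299, 0.0418 and 0.0319), and in each the groups did not overlap. Each of these 3 calls was lost when single libraries were left out. Tpi1 lost its call without S100A4-positive replicate 1 or 3 or S100A4-negative replicate 1 or 2 (limma adjusted p = 0.0625, 0.0881, 0.0797 and 0.0624). Pgk1 lost it without S100A4-positive replicate 1, 2 or 3 or S100A4-negative replicate 1 or 2 (0.0699, 0.0889, 0.0858, 0.119 and 0.110 with limma). Pgam1 kept its call only without S100A4-positive replicate 2 (0.0157), and without the other libraries its limma adjusted p was 0.0503 to 0.0958. Gapdh, often used as a standard of constant expression, was at 1144 ± 88.4 FPKM in S100A4-positive and 1075 ± 26.2 FPKM in S100A4-negative libraries (limma adjusted p = 0.606); after median-of-ratios rescaling it was called higher (0.47, limma adjusted p = 0.0353). Gpi1, glucose-6-phosphate isomerase, was at 313 ± 17.4 FPKM in S100A4-positive and 372 ± 8.07 FPKM in S100A4-negative libraries and did not pass (limma adjusted p = 0.0904), and Aldoc, an aldolase of brain, read 1.93, 3.41 and 3.43 FPKM in S100A4-positive and 2.84, 3.69 and 3.37 FPKM in S100A4-negative libraries.

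Enolase, which makes phosphoenolpyruvate, held the largest fold change of the 45 tested members. Eno3 (ENSMUSG00000060600, chromosome 11, 70657202 to 70662513 of GRCm38), known as the muscle enolase, read 128, 178 and 178 FPKM in S100A4-positive and 10.2, 10.4 and 18.7 FPKM in S100A4-negative libraries. It rose by 3.56 (SE 0.25, limma adjusted p = 5.30e-05), and the lowest S100A4-positive library lay well above the highest S100A4-negative one. Eno1, the enolase found in most tissues, read 685, 529.8 and 545 FPKM in S100A4-positive and 325, 374 and 388 FPKM in S100A4-negative libraries, a rise of 0.69 (SE 0.15, limma adjusted p = 0.00644). Eno3 took 21.8% ± 5.25 of the summed FPKM of both in S100A4-positive and 3.45% ± 1.00 in S100A4-negative libraries (SD, n = 3 each), so Eno1 had the higher FPKM in all 6 libraries. Eno2, the enolase of neurons, which belongs to a list of further pathway genes, rose as well, with 26.0 ± 5.47 FPKM in S100A4-positive and 2.56 ± 0.823 FPKM in S100A4-negative libraries (log2 fold change 2.93, SE 0.22, limma adjusted p = 6.64e-05). Eno1b, a retrotransposed copy of Eno1, was read 3 to 7 times per library.

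**Figure D2:**
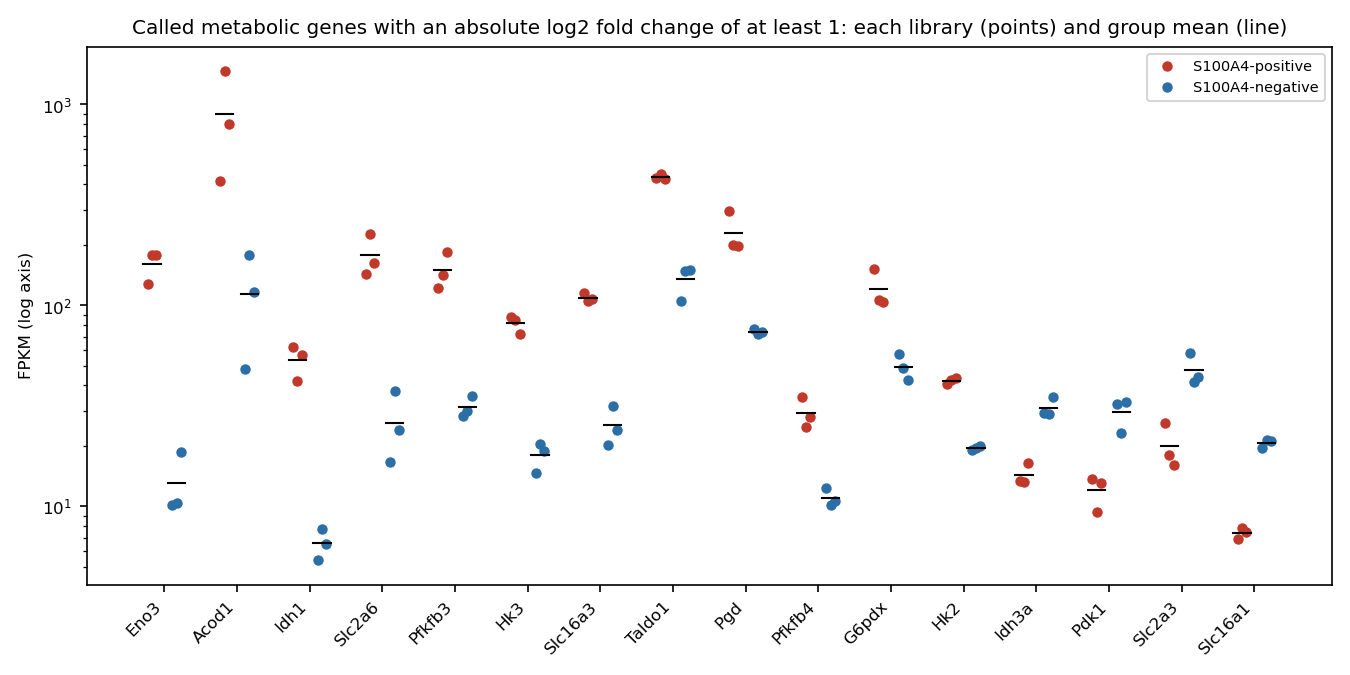
FPKM (log axis) in each library of the 16 called members whose log2 fold change was at least 1 in size, with S100A4-positive points in red to the left of S100A4-negative points in blue and the group mean as a line. In all 16 the 3 points of a group lie on the same side of the other group's points, and Acod1 has the widest spread among S100A4-positive libraries, 418 to 1459.7 FPKM.

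Both lactate carriers were called, in opposite directions, and neither lactate dehydrogenase was. Ldha, which makes lactate from pyruvate, read 363, 364 and 357 FPKM in S100A4-positive and 341, 404 and 409.8 FPKM in S100A4-negative libraries, which overlapped (limma adjusted p = 0.571). Ldhb, the form that favours pyruvate, read 5.15, 6.99 and 6.13 FPKM in S100A4-positive and 7.62, 9.31 and 7.85 FPKM in S100A4-negative libraries (limma adjusted p = 0.0634); it was called lower without S100A4-positive replicate 2 (0.0482). Slc16a3, which encodes MCT4, the exporter of lactate from glycolytic cells, read 116, 105 and 107 FPKM in S100A4-positive and 20.2, 31.5 and 24.1 FPKM in S100A4-negative libraries. It rose by 2.09 (SE 0.17, limma adjusted p = 8.66e-05). Slc16a1, which encodes MCT1, a carrier of higher affinity that works in both directions, read 6.88, 7.78 and 7.42 FPKM in S100A4-positive and 19.5, 21.4 and 21.3 FPKM in S100A4-negative libraries. It fell by 1.38 (SE 0.12, limma adjusted p = 1.26e-04). Slc16a3 held 93.7% ± 0.668 of the summed FPKM of both carriers in S100A4-positive libraries and 54.5% ± 4.46 in S100A4-negative libraries (SD, n = 3 each). The size of these shares rests on the gene lengths used. In S100A4-negative libraries Slc16a3, with 5318 annotated exon bases, had 531, 866 and 695 reads. Slc16a1, with 4426 annotated exon bases, had 1464, 1686 and 1758 reads there. In S100A4-negative replicate 1 the FPKM of Slc16a3 and Slc16a1 lay close, at 20.2 and 19.5, with 531 and 1464 reads. The length used for Slc16a3 was therefore shorter than that for Slc16a1, though Slc16a3 has more annotated exon bases. The shares did not overlap. Monocyte and macrophage marker sums were higher, and T cell, B cell, plasma cell and neutrophil sums lower, in S100A4-positive libraries. The part of any of these in the share was not tested.

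The promoter windows of this opposed pair are printed in the same way, both on the plus strand of GRCm38.p6, Slc16a3 at chr11:120948817-120949116 and Slc16a1 at chr3:104638414-104638713, with the hypoxia core in capitals.
Slc16a3: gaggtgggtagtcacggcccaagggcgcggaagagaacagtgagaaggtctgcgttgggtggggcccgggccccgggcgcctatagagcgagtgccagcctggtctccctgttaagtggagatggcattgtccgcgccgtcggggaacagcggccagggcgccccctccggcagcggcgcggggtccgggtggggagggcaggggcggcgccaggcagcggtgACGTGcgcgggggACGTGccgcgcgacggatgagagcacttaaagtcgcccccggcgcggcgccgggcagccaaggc
Slc16a1: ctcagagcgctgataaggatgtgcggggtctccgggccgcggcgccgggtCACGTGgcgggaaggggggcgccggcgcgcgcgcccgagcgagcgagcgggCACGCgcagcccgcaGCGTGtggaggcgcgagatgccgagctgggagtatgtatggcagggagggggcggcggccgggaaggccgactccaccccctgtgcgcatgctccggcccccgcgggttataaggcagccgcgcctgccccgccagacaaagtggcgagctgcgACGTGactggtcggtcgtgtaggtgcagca
The search found 2 cores in the Slc16a3 window and 5 in the Slc16a1 window, where 1 E-box matches on both strands and counts as 2 so that 4 stretches are marked; both the gene that rose and the gene that fell carried the letters.

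In the pentose phosphate pathway both NADPH-making dehydrogenases, transketolase and transaldolase rose, and the isomerase of the ribose step fell. The other 2 of its 7 genes were not called, so 57.1% rose and 14.3% fell, against 19.0% and 43.4% of all tested genes. The median log2 fold change was 0.91, against -0.36 for all tested genes. G6pdx, the rate-limiting dehydrogenase of the pathway, read 153, 106 and 104 FPKM in S100A4-positive and 57.1, 49.1 and 42.7 FPKM in S100A4-negative libraries. It rose by 1.26 (SE 0.18, limma adjusted p = 0.00107). Pgd, the dehydrogenase that follows and also makes NADPH, read 294, 199.5 and 199 FPKM in S100A4-positive and 76.5, 72.1 and 73.8 FPKM in S100A4-negative libraries, a rise of 1.60 (SE 0.17, limma adjusted p = 2.66e-04). For both genes S100A4-positive replicate 1 was the highest library of all 6. Pgls, the lactonase between them, read 37.1, 42.2 and 46.6 FPKM in S100A4-positive and 30.2, 41.1 and 47.6 FPKM in S100A4-negative libraries and did not pass (limma adjusted p = 0.655). Its log2 fold change of 0.10 was -0.081 without S100A4-negative replicate 1.

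Taldo1, transaldolase, read 433, 449 and 424 FPKM in S100A4-positive and 105, 149 and 150.4 FPKM in S100A4-negative libraries and rose by 1.70 (SE 0.16, limma adjusted p = 1.82e-04). Tkt, transketolase, read 341, 262 and 283 FPKM in S100A4-positive and 162, 151 and 153 FPKM in S100A4-negative libraries and rose by 0.91 (SE 0.13, limma adjusted p = 0.00105). These 2 enzymes move carbon between pentoses and glycolytic sugars. Rpia, the isomerase that makes ribose 5-phosphate, fell, with 11.8, 11.2 and 15.0 FPKM in S100A4-positive and 21.7, 25.2 and 29.0 FPKM in S100A4-negative libraries (log2 fold change -0.95, SE 0.16, limma adjusted p = 0.00204). Rpe, the epimerase beside it, read 11.4, 10.4 and 12.5 FPKM in S100A4-positive and 12.1, 12.7 and 14.1 FPKM in S100A4-negative libraries (limma adjusted p = 0.294). Of the summed FPKM of these 4 genes, Taldo1 and Tkt took 57.8% ± 3.50 and 39.0% ± 3.55 in S100A4-positive libraries, and 40.8% ± 5.19 and 47.6% ± 5.52 in S100A4-negative libraries. Among other pathway genes of the list for pentose phosphates, 0 rose, 4 fell and 2 did not pass of 6 tested, where 43.4% of all tested genes fell; those that fell were Prps1 and Prps2, the synthetases that turn ribose 5-phosphate into the nucleotide precursor PRPP, Pgm2l1 and Shpk, by 1.16, 1.05, 1.18 and 0.68. Of 10 proliferation genes, 8 were called lower and 0 higher, where 43.4% of all tested genes were lower and 19.0% higher. Their sums were 279 to 409.8 FPKM in S100A4-positive and 442 to 615 FPKM in S100A4-negative libraries. A link between them and the pentose phosphate genes was not tested.

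Most genes for the use of pyruvate in mitochondria and for the TCA cycle were not called. Among 9 TCA genes only Idh1 rose (11.1%), Idh3a and Mdh1 fell (22.2%) and 6 were not called, where 19.0% of all tested genes rose and 43.4% fell. The median log2 fold change of the 9 was -0.02. Cs, citrate synthase, which begins the cycle, was at 69.1 ± 1.79 FPKM in S100A4-positive and 63.4 ± 1.17 FPKM in S100A4-negative libraries (limma adjusted p = 0.301). Ogdh, Suclg1 and Fh1, for oxoglutarate dehydrogenase, a succinyl-CoA synthetase subunit and fumarase, were at 58.8 ± 6.66, 30.9 ± 3.94 and 22.1 ± 3.67 FPKM in S100A4-positive libraries and at 59.4 ± 3.17, 37.8 ± 2.57 and 29.4 ± 3.42 FPKM in S100A4-negative libraries (SD, n = 3 each). None passed (limma adjusted p = 0.905, 0.0878 and 0.0575), though Suclg1 was called lower without S100A4-positive replicate 3 (0.0496). After median-of-ratios rescaling Cs, Mdh2, Idh2, Ogdh and Pdha1 were called higher (log2 fold changes 0.50, 0.45, 0.75, 0.36 and 0.31). Pdha1 and Pdhb, the subunits of the E1 component of pyruvate dehydrogenase, did not pass (limma adjusted p = 0.540 and 0.162). Pdha1 read 68.8, 68.4 and 65.1 FPKM in S100A4-positive and 73.8, 70.3 and 68.9 FPKM in S100A4-negative libraries, and Pdhb 82.1, 66.5 and 79.0 FPKM in S100A4-positive and 83.4, 84.4 and 99.0 FPKM in S100A4-negative libraries. Pdk1, a kinase that switches pyruvate dehydrogenase off, read 13.7, 9.39 and 13.0 FPKM in S100A4-positive and 32.5, 23.1 and 33.2 FPKM in S100A4-negative libraries and fell by 1.23 (SE 0.20, limma adjusted p = 0.00156). Pdk4, a kinase induced by fasting in other tissues, was read 0 times in each S100A4-positive library and 0, 2 and 0 times in S100A4-negative libraries and was not tested.

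Among the 3 listed isocitrate dehydrogenase genes, Idh1 had the highest level in each S100A4-positive library and Idh3a in each S100A4-negative library. Idh1 (ENSMUSG00000025950, chromosome 1, 65158616 to 65186500 of GRCm38), the cytosolic enzyme that makes NADPH, read 62.2, 42.1 and 56.8 FPKM in S100A4-positive and 5.40, 7.74 and 6.54 FPKM in S100A4-negative libraries. It rose by 2.85 (SE 0.19, limma adjusted p = 4.51e-05). Idh3a, the catalytic subunit of the NAD enzyme that works in the cycle, read 13.3, 13.2 and 16.5 FPKM in S100A4-positive and 29.0, 29.0 and 35.0 FPKM in S100A4-negative libraries and fell by 1.06 (SE 0.14, limma adjusted p = 7.06e-04). Idh2, the mitochondrial NADP form, read 25.7, 27.7 and 30.0 FPKM in S100A4-positive and 17.4, 22.9 and 23.5 FPKM in S100A4-negative libraries (limma adjusted p = 0.0542). Idh1 held 55.7% ± 5.40 of the summed FPKM of the 3 genes in S100A4-positive and 11.2% ± 1.61 in S100A4-negative libraries, and Idh3a held 15.0% ± 1.60 in S100A4-positive and 52.8% ± 3.80 in S100A4-negative libraries. Idh3b and Idh3g, the other subunits of the NAD enzyme, named after their values were seen, did not pass, with log2 fold changes of -0.22 and -0.19. Idh3b was at 63.7 ± 2.85 FPKM and Idh3g at 93.6 ± 2.13 FPKM in S100A4-positive libraries, and at 74.5 ± 7.96 and 107 ± 4.32 FPKM in S100A4-negative libraries (SD, n = 3 each), above Idh1 in all 6 libraries, so the share of Idh1 given here depends on counting Idh3a alone for the NAD enzyme.

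Of the malate dehydrogenases, the cytosolic one was called and the mitochondrial one was not. Mdh1, the cytosolic enzyme of the malate-aspartate shuttle, read 53.3, 73.9 and 71.0 FPKM in S100A4-positive and 93.0, 115 and 111 FPKM in S100A4-negative libraries, and fell by 0.69 (SE 0.16, limma adjusted p = 0.00778). That call was lost after median-of-ratios rescaling (-0.30, limma adjusted p = 0.167). Mdh2, the mitochondrial enzyme, read 167, 177 and 194 FPKM in S100A4-positive and 165, 175 and 174 FPKM in S100A4-negative libraries (limma adjusted p = 0.643). The share of Mdh2 in their summed FPKM was 73.2% ± 2.62 in S100A4-positive and 61.8% ± 1.94 in S100A4-negative libraries, and did not overlap.

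**Figure D3:**
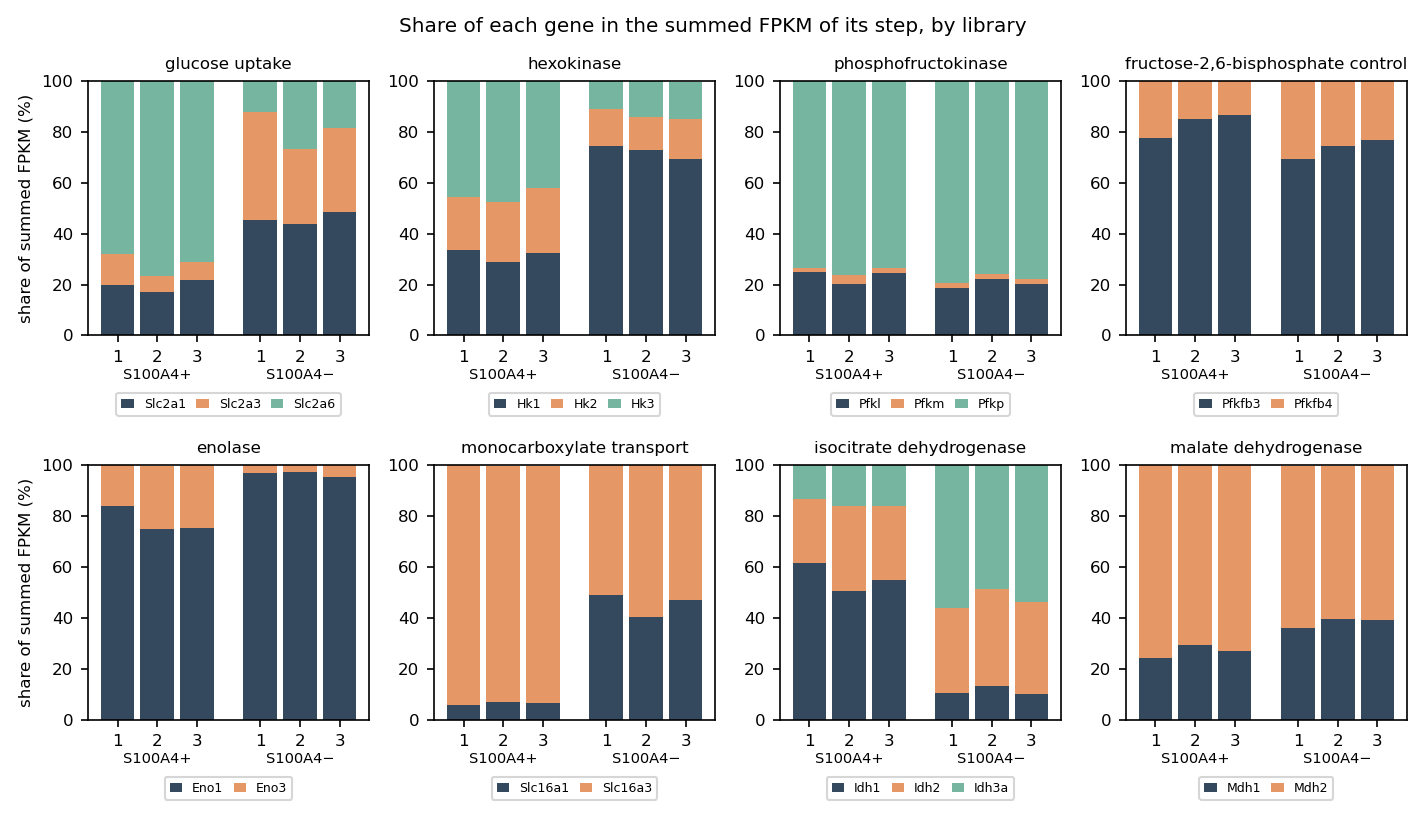
Share (%) of each gene in the summed FPKM of its step, stacked by library, with the 3 S100A4-positive bars left of the 3 S100A4-negative bars in each panel. Slc2a6, Hk3, Slc16a3 and Idh1 take larger shares in every S100A4-positive bar than in any S100A4-negative bar, whereas the phosphofructokinase bars differ little, with Pfkp at 74.3% on average in S100A4-positive and 77.6% in S100A4-negative libraries.

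Acod1, listed as Irg1, leaves the cycle at aconitate and makes itaconate, an antimicrobial metabolite of stimulated macrophages that inhibits succinate dehydrogenase. It read 418, 1459.7 and 801 FPKM in S100A4-positive and 48.1, 178 and 116 FPKM in S100A4-negative libraries, which came from 18579 to 57144 reads in S100A4-positive and 2141 to 8298 reads in S100A4-negative libraries. The groups did not overlap, and Acod1 rose by 2.97 (SE 0.57, limma adjusted p = 0.00337), with the largest SE of the 45 tested members. In S100A4-positive replicate 2 its level was above that of Gapdh, 1093 FPKM. Slc2a6 had the same order of libraries within each group as Acod1. Slc16a1, Ldhb and Mdh1 had this order as well, and their levels were lower in S100A4-positive libraries. The genes for succinate dehydrogenase, named after their values were seen, did not pass, with log2 fold changes of -0.19 (Sdha), 0.07 (Sdhb), 0.18 (Sdhc) and -0.0045 (Sdhd).

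Ratios of genes of the same step do not move with the scaling of a library, apart from a small pseudocount of 0.1. Groups without overlap were common among all tested single genes, 20.9% with S100A4-positive higher and 49.1% with it lower, and pairs of other genes were not examined. Of 14 pairs compared, 10 had groups that did not overlap, 6 higher and 4 lower in S100A4-positive libraries. For each of these 10 the exact two-sided permutation test gave p = 0.1, the smallest that 3 against 3 allows, and 0.140 after Benjamini-Hochberg adjustment over the 14 pairs, so none could pass 0.05. The log2 ratio of Slc16a3 to Slc16a1 was 3.87 ± 0.16 in S100A4-positive and 0.26 ± 0.26 in S100A4-negative libraries (SD, n = 3 each). The ratio of Slc2a6 to Slc2a1 was 1.87 ± 0.25 in S100A4-positive and -1.34 ± 0.59 in S100A4-negative libraries, and that of Hk3 to Hk1 was 0.50 ± 0.19 in S100A4-positive and -2.45 ± 0.28 in S100A4-negative libraries. The ratio of Idh2 to Idh1 was -0.93 ± 0.34 in S100A4-positive and 1.68 ± 0.14 in S100A4-negative libraries, and that of Eno3 to Eno1 was -1.87 ± 0.47 in S100A4-positive and -4.83 ± 0.41 in S100A4-negative libraries. In Slc2a6 to Slc2a1, Hk3 to Hk1 and Idh2 to Idh1 the gene with the higher FPKM differed between the groups in every library. Which gene of a pair is higher depends on the gene lengths used. The ratio of Aldoc to Aldoa was lower by 0.75 in S100A4-positive libraries and by 0.45 without S100A4-positive replicate 1. The pairs that overlapped were Pfkm to Pfkl, Pfkp to Pfkl, Ldhb to Ldha and Pdk4 to Pdk1, and the last is set by the pseudocount because Pdk4 had almost no reads.

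**Figure D4:**
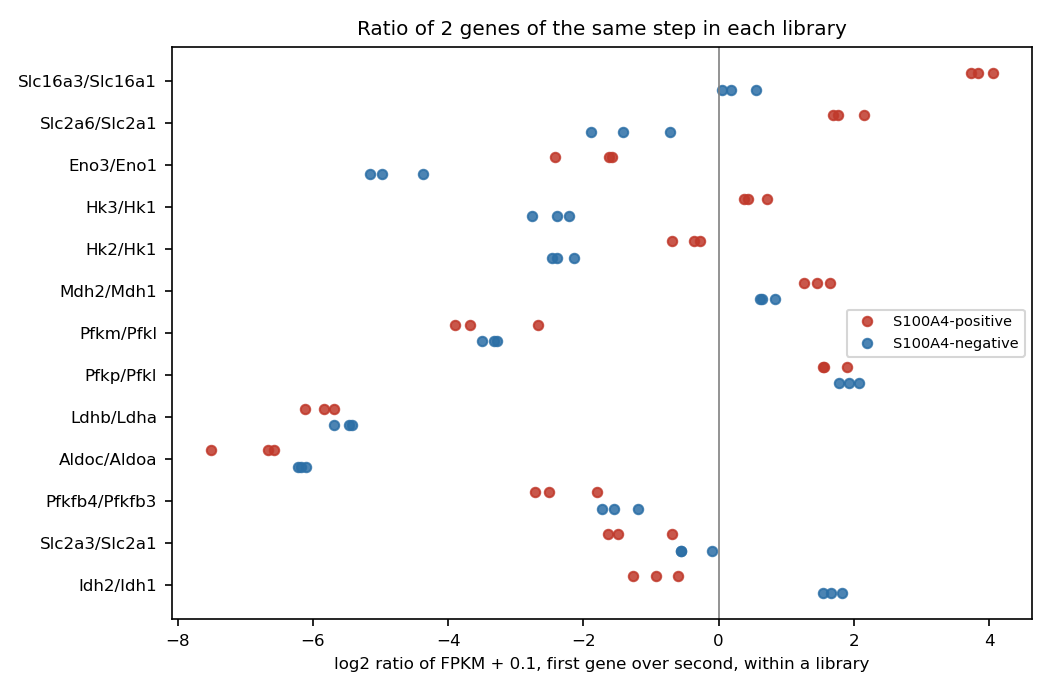
Log2 ratio of FPKM within each library for 13 pairs of genes of the same step (horizontal axis; pairs as first gene over second), S100A4-positive in red above S100A4-negative in blue. The points of Slc16a3 to Slc16a1 average 3.87 in S100A4-positive and 0.26 in S100A4-negative libraries, and those of Pfkm to Pfkl, Pfkp to Pfkl and Ldhb to Ldha overlap.

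Further genes of the same pathways were read from lists chosen with earlier results of these data known. Of 58 such genes tested, 10 rose (17.2%) and 21 fell (36.2%), near the 19.0% and 43.4% of all tested genes, and their median was -0.21 against -0.36 for all tested genes. The counts of the single lists stand against the same shares. Among other glycolysis and gluconeogenesis genes, 1 of 13 rose (Eno2) and 9 fell (69.2%, against 43.4%). Adpgk, an ADP-using glucokinase, Bpgm, which makes 2,3-bisphosphoglycerate, and Pfkfb1 had log2 fold changes of -1.34, -1.11 and -0.86. Among other glucose and lactate transport genes, 2 of 7 rose (Slc16a7 and Slc37a2, by 1.83 and 1.41) and 3 fell, among them Slc16a6 by 0.88 and Slc2a8 by 0.63. Slc16a7, which encodes the pyruvate carrier MCT2, had 3.96 ± 0.690 FPKM in S100A4-positive libraries, against 0.396 ± 0.238 FPKM in S100A4-negative libraries. Of 10 pyruvate entry genes, 0 rose and 1 fell, Pcx, pyruvate carboxylase, by 0.80. Of 11 other TCA genes, 2 rose (Aco1 by 0.61 and Dlst by 0.38) and 1 fell (Suclg2, by 0.65). Among exchange genes, 5 of 11 rose and 3 fell, with Glud1, glutamate dehydrogenase, up by 0.87, Slc25a10 by 0.64 and Slc25a11 by 0.62. Of 13 regulators of glycolysis tested, 0 rose and 8 fell (61.5%, against 43.4% of all tested genes). Myc, which drives glycolysis in activated T cells, was at 29.5 ± 2.42 FPKM in S100A4-positive and 83.2 ± 15.7 FPKM in S100A4-negative libraries and fell by 1.45 (SE 0.15, limma adjusted p = 0.000269), and Txnip, an inhibitor of glucose uptake, fell by 1.20. Hif1a, named after its values were seen, was at 84.1 ± 7.14 FPKM in S100A4-positive and 119 ± 33.1 FPKM in S100A4-negative libraries (limma adjusted p = 0.0686).

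Within the S100A4-positive group, replicate 1 was the highest library for 20 of the 45 tested members, replicate 2 for 12 and replicate 3 for 13. Replicate 1 was the highest for 12 of the 19 members that rose and for 8 of the other 26, with G6pdx, Pgd, Tkt, Pgam1, Eno1 and Pkm among the 12, while replicate 2 was the highest for Slc2a6, Eno3, Taldo1 and Acod1. How often replicate 1 was the highest over all tested genes was not examined, so these counts have no background to stand against. Replicate 1 also had the highest summed neutrophil markers of its group, 1868 FPKM against 567 and 447 FPKM, and the lowest summed dendritic cell markers, 2114 FPKM against 4325 and 4847 FPKM; their part in these values was not tested. Across groups, neutrophil sums were 447 to 1868 FPKM in S100A4-positive and 3530.2 to 5267 FPKM in S100A4-negative libraries.

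The authors' deposited table calls 23 of the 47 genes, 19 higher and 4 lower, where it calls 11.6% of its 28627 tested genes higher and 7.35% lower. Of the 28 members called here, 22 are called in the authors' deposited table, in the same direction. Those called here but not there are Slc2a1, Hk1, Pfkp, Pgk1, Rpia and Mdh1. All 45 tested members have a higher log2 fold change in the authors' deposited table than here. Eno3 has 4.03, Idh1 3.41, Acod1 3.37 and Slc2a6 3.16 in the authors' deposited table, and Gapdh, which it does not call and which was chosen after its values were seen, has 0.48. With voom and median-of-ratios size factors on the recovered reads these 5 were 4.04, 3.41, 3.38, 3.21 and 0.47.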

How the data were processed

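RNA from sorted spleen cells was sequenced after poly(A) selection, per the labels' protocols. Per the submitters' processing notes, HISAT2 2.1.0, Cufflinks and Cuffnorm are named, with the build mm10; annotation and strand handling are not given in the sources used here, so genes that overlap others or have near copies are uncertain (exons shared with other genes made up 15.3% of Pkm's bases and 13.6% of G6pdx's). The deposited table gives FPKM per library. The authors' deposited comparison table gives group mean normalized reads (a signal per gene), log2 fold changes and p-values, with no test named per the file headers.

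Reads were recovered by solving FPKM against those means: 100.0% of 135018 values lay within 0.02 of a whole read. The 13241 genes whose mean FPKM reached 1 were tested with limma-trend (limma 3.58.1, R 4.3.3) on log2(FPKM + 1), with Benjamini-Hochberg adjustment and calls under 0.05. Alternatives were other pseudocounts and filters, other scalings, no trended prior, array weights, voom on the recovered reads, a replicate block and leaving out each library. Ratios within a step were tested by exact permutation. Exons came from GENCODE M21 (GRCm38). Python 3.11.15, numpy 2.4.6, pandas 2.3.3 and matplotlib 3.10.9 were used. Of these steps, only the limma fit was tested on simulated data. There few genes changed, in random directions, whereas 19.0% of tested genes were called higher and 43.4% lower here. Replicates of a group differed by more than sampling noise. Members and lists were chosen with earlier results of these data known. By rule, every library's value is given for members of steps with several genes and for called members with a log2 change of at least 1; up to 4 called genes with the largest change are named per pathway list, and marker lists are given by counts and sums.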

Additional observations from a re-analysis of the deposited data

How the results depend on the processing

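The members called higher numbered 16 to 26 and those called lower 6 to 11 over all alternatives, against 19 and 9 as reported; without single libraries they numbered 16 to 18 and 8 to 11. With the replicate number as a block, 20 were higher and 11 lower, adding Ldhb, Idh2 and Fh1 (limma adjusted p = 0.0365, 0.0243 and 0.0240) and losing no call. The labels do not say that a number marks a shared animal or day, and same-numbered libraries deviated with correlations of 0.376, 0.083 and 0.366; S100A4-positive replicate 2 correlated best with S100A4-negative replicate 3 (0.146), so the pairing is not taken as real.

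Median-of-ratios rescaling moved every log2 fold change up and turned the direction of Gpi1 (0.14), Pfkl (0.077), Pfkm (0.029), Aldoc (0.14), Ldha (0.30), Rpe (0.19), Pdha1 (0.31), Pdhb (0.15), Ogdh (0.36) and Suclg1 (0.090). On the recovered reads with voom and the same size factors the values were Gpi1 0.14, Pfkl 0.080, Aldoc 0.16, Ldha 0.30, Rpe 0.21, Pdha1 0.31, Pdhb 0.16, Ogdh 0.37 and Suclg1 0.095, while Pfkm stayed below 0 at -0.0074. Quantile normalization, which moved the median of all genes by 0.20, turned Aldoc (0.11), Rpe (0.11), Pdha1 (0.0041) and Ogdh (0.091). Without single libraries Aldoc ranged from -0.25 to 0.044, Pgls from -0.081 to 0.24 and Ogdh from -0.10 to 0.065, and the Pfkm to Pfkl ratio difference from -0.42 to 0.19; with a pseudocount of 1 that difference was 0.014. Without a filter on low values Tpi1, Pgk1 and Pgam1 lost their calls (limma adjusted p = 0.0557, 0.0598 and 0.0614), and without the trended prior Pgk1 did (0.0617). Array weights added calls for Gpi1, Ldhb and Idh2 (limma adjusted p = 0.0344, 0.0388 and 0.0266), and a filter at a mean FPKM of 5 for Idh2 (0.0494). The cause of these changes was not tested. Depth limits Pdk4, Fbp1 and S100a4, which had 25 reads or fewer in every library; with 3 libraries a group, no exact test of a single ratio can fall below 0.1.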
